A study of Homo sapiens with 12 samples.

Results

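Genes of the extracellular matrix and of its receptors and proteases were followed in MDA-MB-231 cells kept with or without glucose and glutamine. The genes were taken by name from the protein-coding genes of the deposited table: collagens, laminins, integrin alpha and beta subunits, matrix metalloproteinases (MMPs), tissue inhibitors of metalloproteinases (TIMPs), thrombospondins, the ADAM and ADAMTS proteases, and FN1, SPARC and TNC. They were also selected on their level: 3 or more of the 12 libraries had to reach a normalized count of 10. Of 160 genes with such names 59 met this, as did 8539 protein-coding genes in all. The 59 were 12 of 44 collagens, 8 of 12 laminins, 8 of 18 integrin alpha subunits, 4 of 8 integrin beta subunits, 4 of 7 genes of fibronectin, SPARC, tenascin-C and the thrombospondins, 3 of 23 MMPs, 3 of 4 TIMPs, 8 of 20 ADAMs and 6 of 19 ADAMTS genes. The last 3, ITGB1BP1, ITGB3BP and MMP24OS, carry a family's letters in their name but encode no subunit or protease of it, so that 56 genes belonged to the families. The measured level chose the genes, which is given as a description and tested nowhere.

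The extracellular matrix is a meshwork of collagens, laminins and adhesive glycoproteins that cells secrete and hold on to. Integrins, dimers of an alpha and a beta subunit, bind these proteins outside the cell and connect them to the actin cytoskeleton. MMPs, ADAMs and ADAMTS enzymes are zinc proteases that cut matrix and cell-surface proteins, and TIMPs bind and inhibit them. In breast carcinoma these families are studied for their part in invasion through the basement membrane, a sheet built largely of laminins and type IV collagen.

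MDA-MB-231 is an established human breast adenocarcinoma line with a mesenchymal-like look. Cells grown in 10% fetal bovine serum were moved for 36 h into 1 of 4 media with 3% serum. Full medium provided glucose at 25 mM along with glutamine at 4 mM, glucose-only medium held 25 mM glucose and no glutamine, glutamine-only medium held 4 mM glutamine and no glucose, and deficient medium held neither. Each medium had 3 libraries, lettered A, B and C, of total RNA depleted of ribosomal RNA. The labels do not say whether the 3 came from separate cultures, so the p-values measure the spread between libraries, which may be technical. All 12 carry the same batch entry.

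The values are normalized counts, reads per gene divided by a size factor of the library. Library totals were 875033 to 1473587 recovered reads, and 1 read was worth a normalized count of 0.661 to 1.30. Protein-coding genes held 52.3% to 59.8% of the reads in full, 41.6% to 46.2% in glucose-only, 48.0% to 54.6% in glutamine-only and 43.0% to 51.6% in deficient medium, and the part of this share in the results below was not tested. All 8 markers chosen for the line reached 10, with VIM (vimentin) reaching 1047. Of 6 genes that define its absences 4 stayed under 10 in every library, while ERBB3 reached 16.4 and EPCAM 15.04. Fibroblast and blood cell markers (7 of 7 each), basal epithelial markers (4 of 4) and 5 of 7 endothelial markers stayed under 10 everywhere. The endothelial markers PECAM1 and KDR reached 19.7 and 15.7. Of 6 luminal epithelial markers 4 stayed under 10 everywhere and MUC1 reached 10.6. KRT19, a luminal keratin, had means of 156 in full, 71.6 in glucose-only, 96.97 in glutamine-only and 77.3 in deficient medium, and its part in the results below was not tested. In bulk RNA of this kind, fewer cells with a transcript and less of it in each cell cannot be told apart.

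Loss of both nutrients went with lower levels of most of these genes and with much higher levels of a few. In deficient against full medium 46 of the 59 passed the test (limma on log2(normalized count + 1), Benjamini-Hochberg adjusted p under 0.05 over 9270 genes), where 51.8% of all tested genes did. There were 35 lower genes (25.5% of all tested genes were lower) and 11 higher (26.3%), and the median log2 change of the 59 was -0.70, against 0.013 for all tested genes. Of the 46, 27 changed by 2-fold or more, and the share of all tested genes that did so was not counted. In glucose-only against full medium 22 passed (22.9% of all tested genes did), 17 lower (13.5% of all) and 5 higher (9.44%), with a median of -0.24 against -0.027 for all. In glutamine-only against full medium 19 passed (22.5% of all tested genes did), 15 lower (11.6% of all) and 4 higher (10.8%), with a median of -0.12 against -0.0078. Low counts limit what can be called: 21 of the 59 had a mean of at least 100, and of these 19, 9 and 13 passed in the same order of comparisons, where 74%, 45.3% and 46.5% of all genes at that level did.

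Of the 59 genes, 32 had their highest mean in full medium and 30 their lowest in deficient medium. The same was not counted over all tested genes. 3 genes reached 10 in the libraries of 1 medium only, LAMA1 and ADAMTS6 in deficient and THBS2 in full medium, and had to differ between media by the way they were chosen. Without them 43, 22 and 18 of 56 passed in the 3 comparisons with full medium. All 3 are also among the 27 genes that passed with a change of 2-fold or more in deficient medium. These comparisons share the full-medium libraries, so their values stand side by side below and are not read as independent. By their calls, 16 genes were lower in deficient medium alone, 8 in deficient and glucose-only, 4 in deficient and glutamine-only, and 7 in all 3 (COL13A1, FN1, ITGA1, ITGA6, ITGB1, ITGB4 and TIMP3). MMP1 and MMP16 were higher in all 3, and 8 genes passed in none (ADAM17, ADAM22, ADAMTS12, COL4A1, COL6A2, ITGB8, LAMC1 and TNC). The 4 genes lower in deficient and glutamine-only medium include THBS2. How many of all tested genes show each pattern was not counted, so these counts are a description only.

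**Figure D1:**
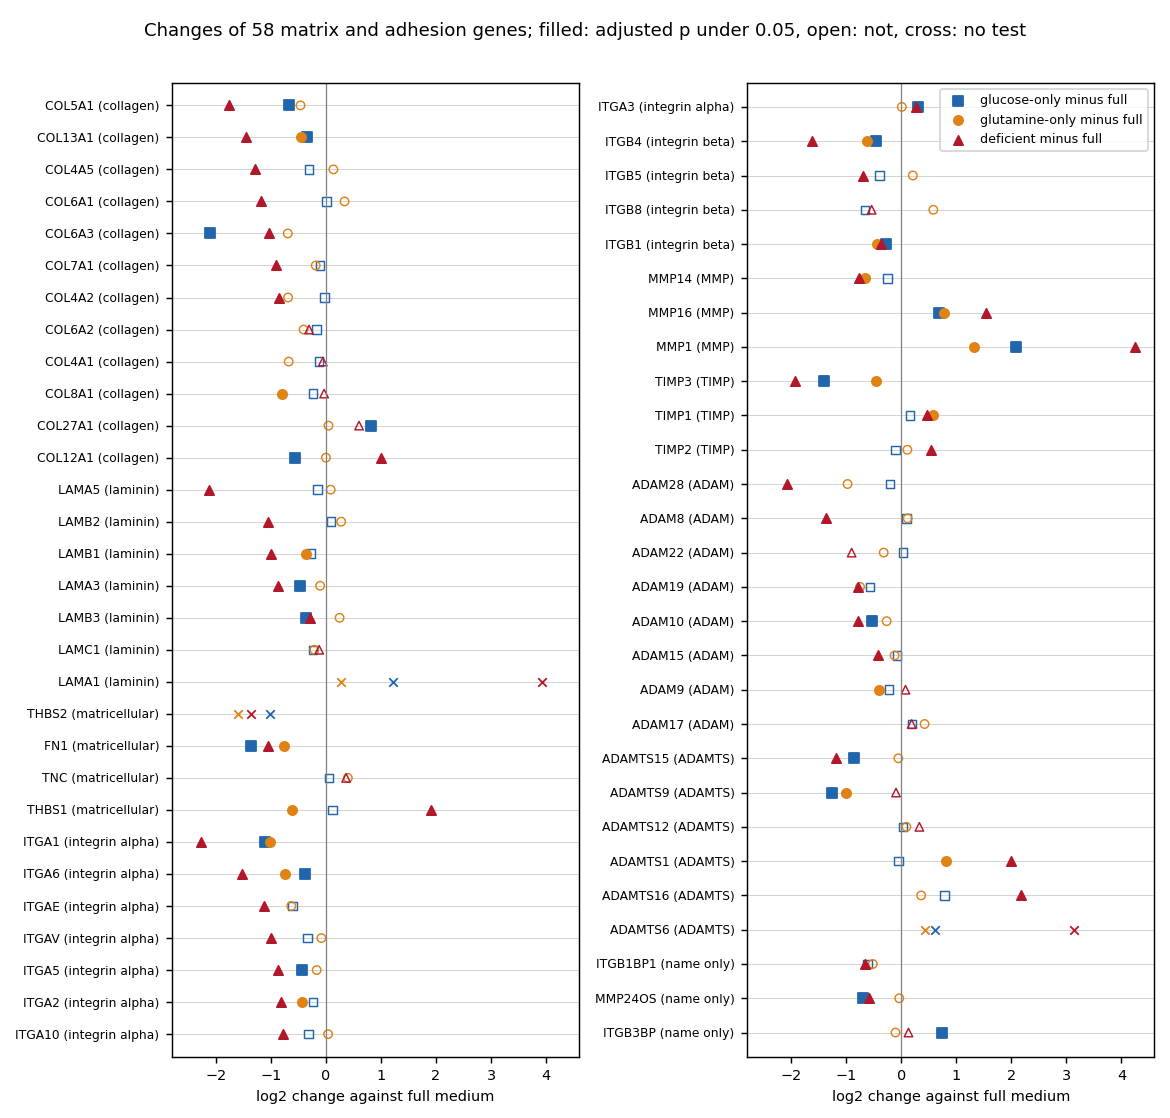
Log2 changes (x axis) of 58 genes (y axis, by family) against full medium in glucose-only (squares), glutamine-only (circles) and deficient medium (triangles), from means of 3 libraries each; filled symbols passed adjusted p under 0.05, and crosses are the 3 genes that reached 10 in 1 medium only, for which no test is given. Deficient-medium triangles lie left of 0 for most genes, while MMP1 lies at 4.25 and THBS1 at 1.91.

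The fibrillar, network and transmembrane collagens that were measured mostly fell when both nutrients were missing: 7 of 12 were lower in deficient medium, COL12A1 was higher, and 4 did not pass. COL13A1, a transmembrane collagen found at cell adhesions, read 240.01, 229 and 239 in full, 199.9, 197 and 162 in glucose-only, 197, 154 and 165 in glutamine-only and 95.02, 72.4 and 92.4 in deficient medium. The deficient libraries were the lowest, with no overlap with any other medium, and the single-nutrient libraries lay between them and full medium. Its log2 change was -1.45 ± 0.12 (SE; adjusted p = 4.43e-11) in deficient, -0.35 ± 0.12 (adjusted p = 0.0365) in glucose-only and -0.46 ± 0.12 (adjusted p = 0.0052) in glutamine-only medium. COL5A1, a chain of fibrillar collagen V, read 59.5, 59.2 and 48.6 in full, 36.1, 36.7 and 30.6 in glucose-only, 40.6, 48.2 and 32.6 in glutamine-only and 18.2, 12.1 and 17.1 in deficient medium. All 3 deficient libraries lay under every library of the other media. The change was -1.77 ± 0.20 in deficient (adjusted p = 1.76e-08) and -0.68 ± 0.20 in glucose-only medium (adjusted p = 0.0137), and -0.47 ± 0.20 (adjusted p = 0.0947) in glutamine-only medium.

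Collagen VI is a beaded-filament collagen assembled from chains of separate genes, of which 3 were measured here. COL6A1 (mean 41.6 ± 5.09 SD in full medium, n = 3) read 44.96, 35.7 and 44.03 in full, 40.95, 36.7 and 48.2 in glucose-only, 47.8, 55.9 and 54.1 in glutamine-only and 14.3, 20.5 and 18.6 in deficient medium. The deficient libraries lay below all others, with a log2 change of -1.18 ± 0.19 (adjusted p = 4.83e-06). COL6A3 read 20.5, 19.7 and 30.3 in full, 3.61, 7.33 and 3.53 in glucose-only, 16.2, 12.5 and 13.05 in glutamine-only and 10.4, 10.9 and 10.9 in deficient medium. Here the glucose-only libraries were the lowest of all media, with a change of -2.11 ± 0.32 (adjusted p = 1.57e-05), below the deficient libraries (-1.04 ± 0.32 against full, adjusted p = 0.00862). COL6A2, the neighbour of COL6A1 on chromosome 21, read 18.5, 18.8 and 16.5 in full, 14.5, 23.1 and 11.8 in glucose-only, 19.8, 7.70 and 14.9 in glutamine-only and 14.3, 14.5 and 13.98 in deficient medium, its deficient libraries lay just under the full ones, and no comparison passed (-0.31 ± 0.31 in deficient medium, adjusted p = 0.423). Whether the 3 chains differed from each other was not tested.

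COL12A1, a fibril-associated collagen, went the other way. Its normalized counts were 27.8, 28.2 and 29.4 in full, 20.5, 19.9 and 16.5 in glucose-only, 31.6, 25.04 and 28.9 in glutamine-only and 50.8, 63.99 and 59.8 in deficient medium. Every deficient library lay above every other library and every glucose-only library below, a change of 1.001 ± 0.19 in deficient (adjusted p = 6.93e-05) and -0.57 ± 0.19 in glucose-only medium (adjusted p = 0.0302). COL27A1, another fibrillar collagen, passed as higher in glucose-only medium, at 22.2 ± 3.22 (SD, n = 3) against 12.2 ± 1.79 in full medium (0.82 ± 0.30, adjusted p = 0.04999). This call was lost in 11 of 17 alternative fits. The deficient libraries of COL27A1, at 20.8, 20.5 and 15.5, also lay above the full ones (13.2, 13.2 and 10.1), but that comparison did not pass. COL8A1, a short-chain network collagen, was lower in glutamine-only medium alone, at 10.3 ± 0.336 against 18.7 ± 2.09 (-0.80 ± 0.29, adjusted p = 0.0426). COL7A1, which forms the anchoring fibrils under epithelia, fell from 57.1 ± 10.3 to 29.6 ± 4.79 in deficient medium (-0.92 ± 0.17, adjusted p = 5.82e-05).

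Type IV collagen of the basement membrane is encoded by gene pairs that sit head to head. COL4A1 and COL4A2 start 126 bases apart on opposite strands of chromosome 13, and these bases are shown because both genes are read outwards from them. The stretch between the starts lies at chr13:110307158-110307283 (GRCh38.p14, RefSeq, plus strand, in the direction of COL4A2), with a CCAAT box and a GC box (letters GGGCGG) in capitals.
COL4A1-COL4A2: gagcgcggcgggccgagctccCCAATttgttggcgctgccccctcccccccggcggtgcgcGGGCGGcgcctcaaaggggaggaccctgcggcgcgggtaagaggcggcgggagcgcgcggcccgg
COL4A1 read 13.2, 9.40 and 15.6 in full, 10.8, 10.5 and 12.9 in glucose-only, 7.22, 6.74 and 8.39 in glutamine-only and 11.7, 16.9 and 8.54 in deficient medium. The glutamine-only libraries were the lowest and the other media overlapped, but COL4A1 passed in no comparison with full medium (-0.059 ± 0.33, adjusted p = 0.897, in deficient medium). COL4A2 read 37.7, 33.8 and 33.02 in full, 34.9, 29.3 and 38.8 in glucose-only, 12.6, 34.7 and 21.4 in glutamine-only and 20.8, 15.7 and 20.2 in deficient medium. Its deficient libraries lay below all full and glucose-only libraries, a change of -0.86 ± 0.26 (adjusted p = 0.00618), and overlapped the wide range of the glutamine-only libraries. The difference between the genes was not tested, and COL4A1 rests on few reads. COL4A5, a chain of a type IV collagen on the X chromosome, read 31.7, 16.9 and 22.9 in full, 24.1, 14.7 and 17.6 in glucose-only, 24.4, 27.9 and 24.2 in glutamine-only and 10.4, 12.1 and 5.44 in deficient medium. Its deficient libraries were again the lowest (-1.29 ± 0.29, adjusted p = 0.000568).

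Laminins are trimers of an alpha, a beta and a gamma chain, and 6 of the 8 chains measured were lower in deficient medium, LAMC1 did not pass, and LAMA1 is given with no test. LAMA5 and LAMB2, chains of a widespread basement membrane laminin, showed no called change when either nutrient alone was missing and a large one when both were. LAMA5 (ENSG00000130702, chr20:62309065-62367312) read 378, 361 and 332 in full, 324, 314 and 323 in glucose-only, 414, 352 and 370.03 in glutamine-only and 84.6, 95.4 and 66.000 in deficient medium. The deficient libraries lay far under all others, with a log2 change of -2.12 ± 0.11 (adjusted p = 2.04e-15), or 4.35-fold lower. In glucose-only and glutamine-only medium the changes were -0.15 ± 0.11 (adjusted p = 0.355) and 0.083 ± 0.11 (adjusted p = 0.662). LAMB2 had counts of 138, 120.3 and 108 in full, 120.5, 145 and 125 in glucose-only, 159.7, 150.2 and 133 in glutamine-only and 46.9, 61.6 and 66.8 in deficient medium. It too was lowest in the deficient libraries with no overlap (-1.06 ± 0.13, adjusted p = 1.28e-07). The 250 bases before the RefSeq start of each are shown since the genes share this pattern, 5′ to 3′ on the minus strand (GRCh38.p14), at chr20:62367313-62367562 for LAMA5 and chr3:49133051-49133300 for LAMB2. Capitals mark GC boxes, read as GGGCGG or its reverse complement CCGCCC, and in LAMA5 also TGACGT, the core of a cyclic AMP response element (CRE).
LAMA5: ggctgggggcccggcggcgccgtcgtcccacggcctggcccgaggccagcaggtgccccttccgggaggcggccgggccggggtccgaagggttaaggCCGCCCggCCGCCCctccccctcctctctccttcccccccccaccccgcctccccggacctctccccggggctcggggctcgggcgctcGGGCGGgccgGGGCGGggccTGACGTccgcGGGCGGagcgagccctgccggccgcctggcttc
LAMB2: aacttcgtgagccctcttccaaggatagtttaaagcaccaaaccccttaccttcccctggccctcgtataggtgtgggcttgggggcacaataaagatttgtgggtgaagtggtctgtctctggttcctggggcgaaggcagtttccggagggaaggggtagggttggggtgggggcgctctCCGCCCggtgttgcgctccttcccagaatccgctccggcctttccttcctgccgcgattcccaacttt

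LAMA3 and LAMB3 encode chains of a laminin that anchors epithelia. LAMA3 read 109.8, 103 and 106 in full, 83.1, 74.4 and 72.9 in glucose-only, 82.99, 96.3 and 120.2 in glutamine-only and 72.9, 48.3 and 53.6 in deficient medium. Its deficient libraries were the lowest, with a change of -0.88 ± 0.15 (adjusted p = 1.20e-05), and glucose-only medium was lower as well (-0.47 ± 0.15, adjusted p = 0.0207). LAMB3 read 174, 182 and 191 in full, 143, 133 and 147 in glucose-only, 228, 212 and 209 in glutamine-only and 144, 144 and 161 in deficient medium. Here the glucose-only libraries overlapped none of the full ones and lay lower (-0.37 ± 0.10, adjusted p = 0.00849), the deficient ones lay lower too (-0.28 ± 0.10, adjusted p = 0.0199), and the glutamine-only libraries were the highest (0.24 ± 0.10, adjusted p = 0.0818).

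LAMB1, a beta chain of early and widespread laminins, read 130.3, 139 and 126 in full, 108, 97.4 and 119 in glucose-only, 106, 101 and 99.7 in glutamine-only and 63.8, 73.7 and 59.01 in deficient medium. Deficient libraries were the lowest (-1.002 ± 0.12, adjusted p = 5.68e-08), and glutamine-only medium was lower than full too (-0.36 ± 0.12, adjusted p = 0.0282). LAMC1, the gamma chain that most laminins share, read 259, 227 and 257 in full, 204, 221 and 206 in glucose-only, 197, 222 and 223 in glutamine-only and 224, 215 and 242 in deficient medium. It passed in none of the 3 comparisons with full medium (-0.13 ± 0.099 in deficient, adjusted p = 0.302). LAMA1, an alpha chain best known from the embryo, was almost without reads in 3 media: 1, 1 and 0 reads in full, 2, 1 and 4 in glucose-only and 1, 2 and 0 in glutamine-only medium, against 19, 16 and 26 in deficient medium. Its normalized counts there were 24.7, 19.3 and 20.2, which is how it came to be measured, and no test is given for it.

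Fibronectin, tenascin-C and the thrombospondins are adhesive glycoproteins of the matrix, and they split. FN1, fibronectin, the main integrin ligand measured here (ENSG00000115414, chr2:215360865-215436068), read 1204, 1083 and 1118 in full, 442, 426 and 454 in glucose-only, 714, 619 and 669 in glutamine-only and 564, 536 and 529 in deficient medium. No library of another medium reached the full libraries, and glucose-only medium was the lowest. The log2 changes against full were -1.36 ± 0.093 (adjusted p = 3.79e-12) in glucose-only, -1.06 ± 0.093 (adjusted p = 1.28e-10) in deficient and -0.77 ± 0.093 (adjusted p = 3.15e-07) in glutamine-only medium. THBS1, thrombospondin-1, a secreted glycoprotein that inhibits angiogenesis and can activate latent TGF-beta (ENSG00000137801, chr15:39581079-39599466), read 182, 188 and 199 in full, 184, 212 and 225 in glucose-only, 115, 131 and 123 in glutamine-only and 700.3, 717 and 724 in deficient medium. The deficient libraries exceeded every other library, 3.75-fold above full medium (1.91 ± 0.099, adjusted p = 1.39e-15), while the glutamine-only libraries were the lowest (-0.62 ± 0.099, adjusted p = 2.14e-05) and glucose-only medium did not pass (0.12 ± 0.099, adjusted p = 0.42).

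TNC, tenascin-C, passed nowhere, with counts of 21.8, 23.5 and 12.8 in full, 14.5, 22.005 and 23.5 in glucose-only, 26.2, 27.9 and 21.4 in glutamine-only and 27.3, 22.9 and 23.3 in deficient medium (0.36 ± 0.25 in deficient medium, adjusted p = 0.238). THBS2, a relative of THBS1, was measured only through its full-medium libraries of 10.6, 11.3 and 10.1; the other 9 lay between 0.902 and 6.52, and no test is given for it. SPARC, a collagen-binding glycoprotein, stayed under the level required, with a highest value of 1.32. The 250 bases before the starts of FN1 (chr2:215436069-215436318, minus strand) and THBS1 (chr15:39580829-39581078, plus strand) are shown because the transcripts moved in opposite directions in deficient medium (GRCh38.p14, 5′ to 3′). In FN1 the capitals are GC boxes, several of which share letters, a CCAAT box, and matches to the CRE motif TGACGT on both strands that share letters. In THBS1 they are GC boxes, a CCAAT box (ATTGG on the strand shown) and a TEAD site, GGAATG.
FN1: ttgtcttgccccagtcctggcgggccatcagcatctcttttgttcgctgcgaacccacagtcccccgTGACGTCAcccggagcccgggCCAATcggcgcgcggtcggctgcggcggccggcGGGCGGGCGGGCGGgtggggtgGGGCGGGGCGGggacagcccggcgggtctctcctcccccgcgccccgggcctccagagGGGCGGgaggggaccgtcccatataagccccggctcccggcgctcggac
THBS1: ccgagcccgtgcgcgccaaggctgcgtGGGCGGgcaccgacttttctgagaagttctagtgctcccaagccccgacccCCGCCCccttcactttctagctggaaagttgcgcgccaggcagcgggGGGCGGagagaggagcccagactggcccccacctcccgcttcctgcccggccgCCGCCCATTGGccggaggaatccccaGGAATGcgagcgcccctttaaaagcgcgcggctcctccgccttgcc

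**Figure D2:**
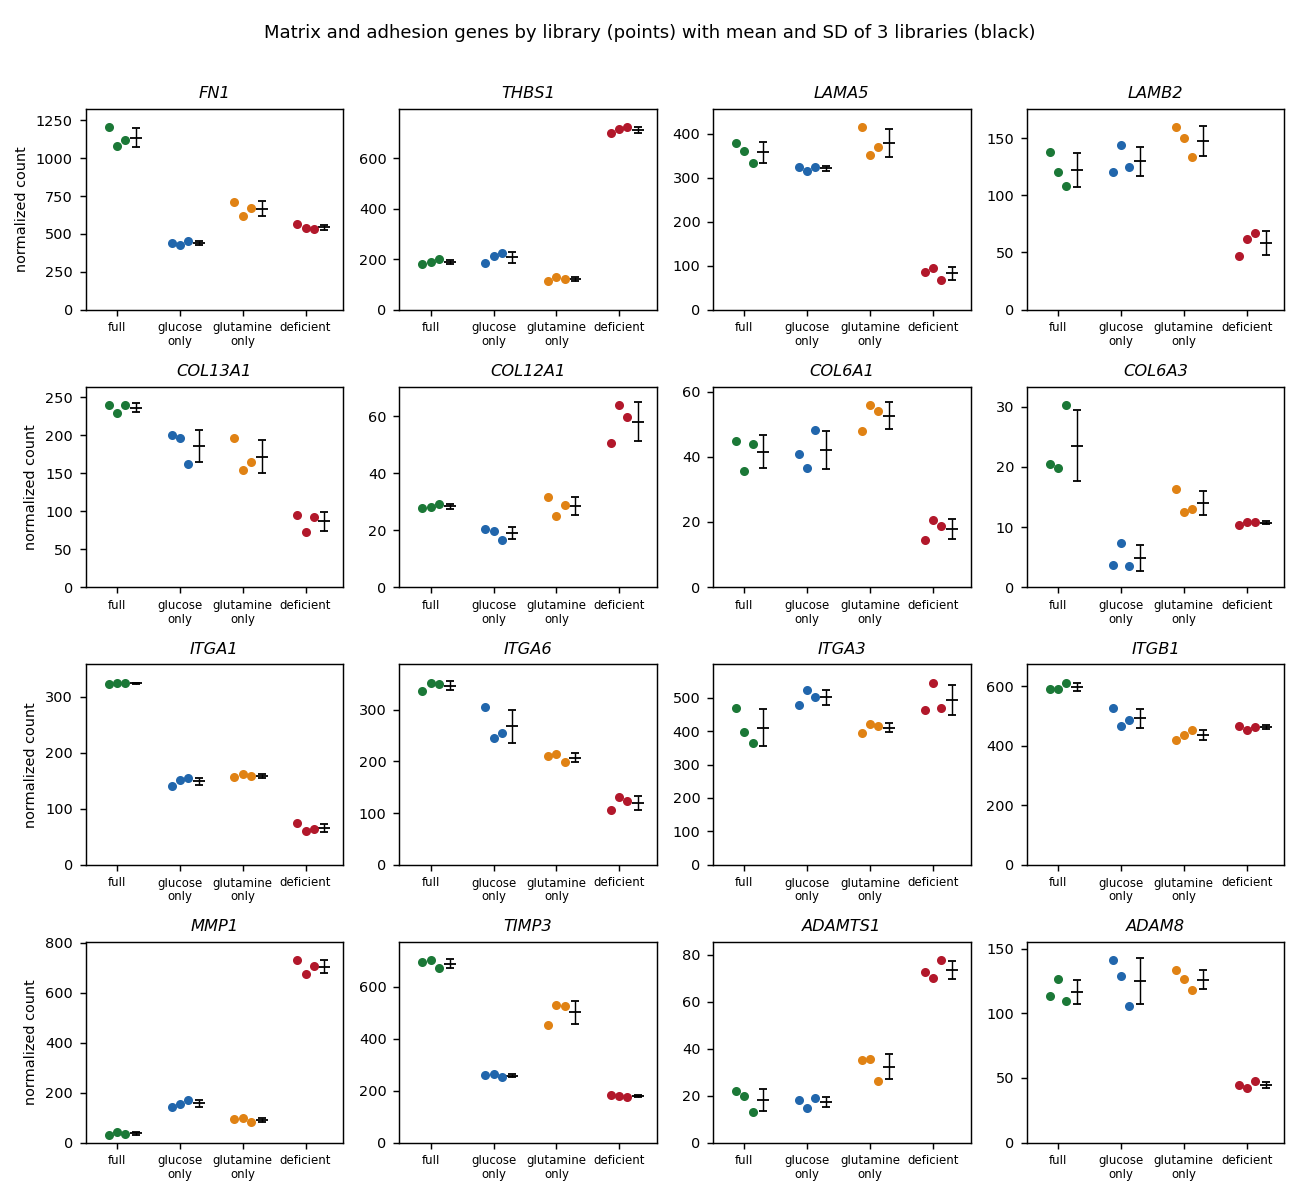
Normalized counts (y axes, linear from 0) of 16 genes in each library (points, colored by medium) with the mean and SD of 3 libraries (black bars). Deficient libraries stand above all others for THBS1, COL12A1, MMP1 and ADAMTS1 and below all others for LAMA5, LAMB2, COL13A1, COL6A1, ITGA1, ITGA6, TIMP3 and ADAM8.

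Integrin alpha subunits carry most of the ligand specificity, and 7 of the 8 measured were lower in deficient medium. ITGA1, which with ITGB1 binds collagen and laminin, read 322, 323 and 325 in full, 141, 151 and 154 in glucose-only, 156, 163 and 158 in glutamine-only and 74.2, 60.4 and 64.4 in deficient medium. The 4 media did not overlap, with full highest, then glutamine-only, glucose-only and deficient medium. The changes were -2.27 ± 0.10 (adjusted p = 9.01e-17) in deficient, -1.12 ± 0.10 (adjusted p = 3.00e-09) in glucose-only and -1.02 ± 0.10 (adjusted p = 1.35e-08) in glutamine-only medium. ITGA2, a collagen-binding alpha subunit and the neighbour of ITGA1 on chromosome 5, read 702, 684 and 763 in full, 599.8, 586 and 631 in glucose-only, 549, 519 and 509 in glutamine-only and 398, 402 and 418 in deficient medium. The order was full, glucose-only, glutamine-only, deficient with no overlap, and the change in deficient medium was -0.82 ± 0.09 (adjusted p = 1.37e-08). In the single-nutrient media ITGA2 passed in glutamine-only (-0.44 ± 0.09, adjusted p = 0.000507) but not in glucose-only medium (-0.24 ± 0.09, adjusted p = 0.0537).

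ITGA6, the laminin-binding partner of ITGB4 in hemidesmosomes, read 337, 352 and 350.4 in full, 305, 245 and 255 in glucose-only, 210.2, 214 and 199 in glutamine-only and 105, 132 and 123 in deficient medium. All 3 altered media lay under full medium, with -1.53 ± 0.11 (adjusted p = 8.65e-13) in deficient, -0.74 ± 0.11 (adjusted p = 4.71e-06) in glutamine-only and -0.37 ± 0.11 (adjusted p = 0.0102) in glucose-only medium. ITGA3, another laminin receptor subunit, was the exception among the alpha subunits and read 470.1, 397 and 363 in full, 477, 523 and 502 in glucose-only, 395, 419.9 and 416 in glutamine-only and 462, 545 and 469.8 in deficient medium. Deficient and full libraries overlapped, the change was 0.27 ± 0.10 (adjusted p = 0.0287), and it turned to -0.13 when libraries were scaled to equal totals and to -0.064 under quantile normalization. Its direction in deficient medium therefore depends on the scaling. In glucose-only medium ITGA3 was higher by 0.29 ± 0.10 (adjusted p = 0.0351).

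ITGAV and ITGA5 encode subunits that bind fibronectin and other ligands through the RGD motif. ITGAV read 113, 118 and 118 in full, 99.97, 83.8 and 92.9 in glucose-only, 105, 109 and 117 in glutamine-only and 58.6, 48.3 and 67.6 in deficient medium. Deficient libraries were the lowest (-1.004 ± 0.13, adjusted p = 1.59e-07). ITGA5 counts were 91.2, 102 and 80.7 in full, 61.4, 69.2 and 69.4 in glucose-only, 76.7, 82.8 and 82.95 in glutamine-only and 58.6, 42.3 and 47.4 in deficient medium. Deficient libraries lay under all others (-0.88 ± 0.14, adjusted p = 5.92e-06), and glucose-only medium under full (-0.45 ± 0.14, adjusted p = 0.0207). ITGAE, known from lymphocytes of the epithelium, read 19.2, 24.4 and 19.3 in full, 13.2, 11.5 and 15.3 in glucose-only, 15.3, 7.70 and 18.6 in glutamine-only and 7.81, 10.9 and 8.54 in deficient medium. It was lower in deficient medium (-1.13 ± 0.31, adjusted p = 0.00357), at low counts. ITGA10, a collagen receptor subunit of cartilage, fell from 32.96 ± 9.51 to 18.4 ± 2.43 (-0.78 ± 0.23, adjusted p = 0.00637).

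Among the beta subunits 3 of 4 were lower in deficient medium. ITGB1, the common partner of most alpha subunits measured here, read 590.4, 590.3 and 613 in full, 528, 466 and 486 in glucose-only, 420.4, 438 and 453 in glutamine-only and 469, 455 and 464 in deficient medium. The full libraries were the highest, and all 3 other media lay under them: -0.37 ± 0.09 (adjusted p = 0.00112) in deficient, -0.28 ± 0.09 (adjusted p = 0.0241) in glucose-only and -0.45 ± 0.09 (adjusted p = 0.000399) in glutamine-only medium. ITGB4, the hemidesmosome subunit that pairs with ITGA6, read 145, 144 and 133 in full, 93.95, 109 and 101 in glucose-only, 90.2, 108 and 77.4 in glutamine-only and 63.8, 35.02 and 40.4 in deficient medium. Like ITGA6 it was lower in all 3 media and lowest in the deficient one (-1.62 ± 0.16, adjusted p = 1.36e-09). ITGB5, a partner of ITGAV, read 89.9, 71.4 and 82.6 in full, 48.2, 62.9 and 75.3 in glucose-only, 93.8, 107 and 82.02 in glutamine-only and 58.6, 35.02 and 58.2 in deficient medium, and only deficient medium passed (-0.70 ± 0.18, adjusted p = 0.00145). ITGB8, which with ITGAV activates latent TGF-beta, passed in no comparison with full medium. Its means were 17.9 ± 5.62 in glutamine-only and 6.81 ± 0.811 in glucose-only medium, which differed (-1.24 ± 0.34, adjusted p = 0.013). Against 7.66 ± 2.17 in deficient medium the glutamine-only level was higher too (1.12 ± 0.34, adjusted p = 0.00919). ITGB8 reached 10 in 5 libraries, all of full or glutamine-only medium, so its selection favoured both of these differences. ITGB3, a further RGD-binding beta subunit, stayed under 10, with a highest value of 5.64.

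Of the 3 MMPs, 2 were higher in all 3 altered media and 1 was lower in deficient medium. MMP1, the interstitial collagenase (ENSG00000196611, chr11:102789919-102798160), read 31.1, 43.2 and 34.9 in full, 143, 156 and 169 in glucose-only, 92.9, 99.2 and 82.95 in glutamine-only and 729, 675 and 707 in deficient medium. Each medium formed a band of its own, rising from full through glutamine-only and glucose-only to deficient medium. MMP1 was 19.01-fold higher in deficient than in full medium (4.25 ± 0.12, adjusted p = 1.33e-21). The changes with a single nutrient missing were 2.08 ± 0.12 (adjusted p = 7.71e-14) in glucose-only and 1.32 ± 0.12 (adjusted p = 1.08e-09) in glutamine-only medium. MMP16, a membrane-bound MMP, read 16.5, 12.2 and 16.5 in full, 25.3, 19.9 and 29.4 in glucose-only, 18.04, 28.9 and 35.4 in glutamine-only and 52.1, 48.3 and 36.5 in deficient medium. Deficient libraries were the highest (1.53 ± 0.24, adjusted p = 5.66e-06), and both single-nutrient media lay above full (0.68 ± 0.24, adjusted p = 0.0422, and 0.78 ± 0.24, adjusted p = 0.0188). MMP14, the membrane-bound collagenase that activates MMP2, went the other way and read 223, 277 and 222 in full, 199, 205 and 199 in glucose-only, 165, 172 and 121 in glutamine-only and 139, 136 and 144 in deficient medium. It was lower in deficient (-0.77 ± 0.12, adjusted p = 3.82e-06) and glutamine-only medium (-0.66 ± 0.12, adjusted p = 0.000116). The gelatinases MMP2 and MMP9 had highest values of 0.963 and 1.21, too few reads to be measured.

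TIMPs did not move together. TIMP3, the inhibitor that binds to the matrix and also inhibits ADAM17 (ENSG00000100234, chr22:32801705-32863041), read 695, 702 and 671 in full, 260.2, 263 and 252 in glucose-only, 452, 529 and 526 in glutamine-only and 185, 179 and 174 in deficient medium. No media overlapped, and the order was full, glutamine-only, glucose-only, deficient. The changes were -1.94 ± 0.093 (adjusted p = 2.19e-16) in deficient, -1.41 ± 0.093 (adjusted p = 1.76e-12) in glucose-only and -0.46 ± 0.093 (adjusted p = 0.000448) in glutamine-only medium. TIMP1, a secreted inhibitor of most MMPs, read 128, 135 and 146 in full, 141, 139 and 179 in glucose-only, 199, 205 and 209.7 in glutamine-only and 171, 210.1 and 187 in deficient medium. It was higher in glutamine-only (0.58 ± 0.11, adjusted p = 0.000269) and deficient medium (0.47 ± 0.11, adjusted p = 0.00102). TIMP2, which takes part with MMP14 in the activation of MMP2, read 177, 187 and 168 in full, 167, 173 and 155 in glucose-only, 179, 208 and 188 in glutamine-only and 249, 281 and 241 in deficient medium. Only deficient medium passed (0.53 ± 0.10, adjusted p = 8.42e-05), with its libraries above all others. With equal totals the deficient-medium changes of TIMP1 and TIMP2 were 0.066 and 0.13 and no longer passed. The 250 bases before the start of TIMP3 (chr22:32801455-32801704, plus strand, GRCh38.p14, 5′ to 3′) are shown because TIMP3 was lower in all 3 altered media, with GC boxes and a CCAAT box (ATTGG on this strand) in capitals.
TIMP3: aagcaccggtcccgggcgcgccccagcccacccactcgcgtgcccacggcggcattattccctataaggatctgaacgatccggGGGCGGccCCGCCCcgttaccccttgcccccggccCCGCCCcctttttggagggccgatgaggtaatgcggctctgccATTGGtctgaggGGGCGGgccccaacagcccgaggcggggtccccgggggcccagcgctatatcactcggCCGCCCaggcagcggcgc

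ADAMs are membrane-anchored proteases, several of which shed growth factors and receptors from the cell surface. In deficient medium 5 of 8 were lower and none higher. ADAM8, known from leukocytes and from breast cancer metastasis, read 113, 127 and 109 in full, 141, 129 and 106 in glucose-only, 134, 126 and 118 in glutamine-only and 44.3, 42.3 and 47.4 in deficient medium. The deficient libraries lay far under the rest, which overlapped, with changes of -1.36 ± 0.12 (adjusted p = 3.40e-10) in deficient, 0.098 ± 0.12 (adjusted p = 0.624) in glucose-only and 0.12 ± 0.12 (adjusted p = 0.573) in glutamine-only medium. ADAM10, a sheddase of Notch and cadherins, read 115, 115 and 150.4 in full, 91.5, 78.6 and 89.4 in glucose-only, 100.1, 102 and 111 in glutamine-only and 72.9, 79.7 and 66.000 in deficient medium. It was lower in deficient (-0.78 ± 0.13, adjusted p = 8.74e-06) and glucose-only medium (-0.54 ± 0.13, adjusted p = 0.00263). ADAM17, the sheddase of TNF and of ligands of the EGF receptor, read 39.7, 39.5 and 44.03 in full, 55.4, 48.2 and 38.8 in glucose-only, 64.9, 48.2 and 54.1 in glutamine-only and 46.9, 47.1 and 46.6 in deficient medium. No comparison with full medium passed (0.42 ± 0.16 in glutamine-only medium, adjusted p = 0.061).

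ADAM9, another sheddase, had counts of 190.4, 172 and 172 in full, 149, 153 and 155 in glucose-only, 139.8, 139.6 and 126 in glutamine-only and 197, 179.9 and 187 in deficient medium. Glutamine-only libraries were the lowest (-0.40 ± 0.10, adjusted p = 0.00444), while deficient and full libraries overlapped (0.076 ± 0.10, adjusted p = 0.553). With equal totals the deficient-medium value turned to -0.32. ADAM15, an ADAM with an RGD motif, was lower in deficient medium at 65.1, 65.2 and 48.9 against 84.6, 79.9 and 74.3 in full, 65.04, 67.1 and 97.6 in glucose-only and 71.3, 78.97 and 68.97 in glutamine-only medium (-0.42 ± 0.15, adjusted p = 0.0227). ADAM19 and ADAM28 were lower at low counts. ADAM28 reached 10 in 3 libraries only, all of full or glucose-only medium, so its selection favoured a difference from deficient medium. ADAM28 had 18, 7 and 16 reads in full against 2, 1 and 2 in deficient medium (-2.08 ± 0.42, adjusted p = 0.000148), with normalized counts of 11.9, 6.58 and 14.7 in full, 8.43, 7.33 and 11.8 in glucose-only, 6.31, 3.85 and 4.66 in glutamine-only and 2.60, 1.21 and 1.55 in deficient medium. ADAM19 read 22.5, 14.1 and 22.02 in full, 8.43, 11.5 and 19.99 in glucose-only, 8.12, 11.6 and 13.98 in glutamine-only and 11.7, 12.1 and 8.54 in deficient medium (-0.79 ± 0.33, adjusted p = 0.046).

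ADAMTS proteases are secreted and carry thrombospondin repeats, and ADAMTS1 and ADAMTS16 rose in deficient medium. ADAMTS1, which cleaves proteoglycans, read 21.8, 19.7 and 12.8 in full, 18.1, 14.7 and 18.8 in glucose-only, 35.2, 35.6 and 26.1 in glutamine-only and 72.9, 70.03 and 77.6 in deficient medium. Deficient libraries were the highest, glutamine-only libraries came next, and full and glucose-only libraries overlapped. It was 3.98-fold higher in deficient medium (1.99 ± 0.21, adjusted p = 7.19e-09) and also higher in glutamine-only medium (0.82 ± 0.21, adjusted p = 0.00553). ADAMTS16 read 7.27, 8.46 and 2.75 in full, 12.05, 11.5 and 8.23 in glucose-only, 12.6, 3.85 and 8.39 in glutamine-only and 22.1, 38.6 and 28.7 in deficient medium. Its deficient libraries lay above all others (2.18 ± 0.39, adjusted p = 3.13e-05). ADAMTS16 reached 10 in 6 libraries, none of them of full medium, so its selection favoured a difference between deficient and full medium. ADAMTS6 had 3, 0 and 2 reads in full, 1, 5 and 1 in glucose-only, 3, 2 and 1 in glutamine-only and 14, 13 and 22 in deficient medium; it was measured through the last group and no test is given.

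ADAMTS9, a proteoglycan-cleaving relative, read 13.9, 17.9 and 15.6 in full, 10.8, 5.24 and 3.53 in glucose-only, 5.41, 9.63 and 7.46 in glutamine-only and 18.2, 15.7 and 10.9 in deficient medium. It was lower in glucose-only (-1.27 ± 0.36, adjusted p = 0.0118) and glutamine-only medium (-1.005 ± 0.36, adjusted p = 0.0458) and overlapped full medium in the deficient libraries (-0.097 ± 0.36, adjusted p = 0.844). ADAMTS9 reached 10 in 7 libraries, those of full and deficient medium and glucose-only A, so its selection favoured both lower calls. ADAMTS15 read 39.01, 31.96 and 22.02 in full, 12.05, 23.1 and 15.3 in glucose-only, 31.6, 26.003 and 29.8 in glutamine-only and 15.6, 12.1 and 10.9 in deficient medium. It fell in deficient (-1.19 ± 0.26, adjusted p = 0.000458) and glucose-only medium (-0.86 ± 0.26, adjusted p = 0.0188).

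Of the 3 genes matched by name only, ITGB3BP, a centromere protein, was higher in glucose-only medium at 26.5, 29.3 and 31.7 against 21.2, 15.98 and 14.7 in full, 17.1, 15.4 and 14.9 in glutamine-only and 20.8, 15.7 and 20.2 in deficient medium (0.74 ± 0.24, adjusted p = 0.0264). MMP24OS, read from the strand opposite MMP24, had counts of 31.7, 31.02 and 25.7 in full, 16.9, 18.9 and 17.6 in glucose-only, 28.9, 28.9 and 27.96 in glutamine-only and 19.5, 15.7 and 23.3 in deficient medium. It was lower in glucose-only (-0.69 ± 0.22, adjusted p = 0.022) and deficient medium (-0.58 ± 0.22, adjusted p = 0.028). ITGB1BP1, which binds the tail of integrin beta 1, had counts of 28.4, 30.1 and 34.9 in full, 16.9, 19.9 and 23.5 in glucose-only, 18.04, 24.1 and 22.4 in glutamine-only and 24.7, 14.5 and 20.2 in deficient medium and was lower in deficient medium (-0.65 ± 0.24, adjusted p = 0.0233). Exons on the opposite strand cover part of some genes in GENCODE release 29: 33.1% of the exonic length of ITGB1BP1 (by ASAP2), 14.5% of MMP24OS (by MMP24) and 12.3% of ADAM17 (by IAH1). The strand setting of the counting is not given in the sources used here, so reads from such pairs cannot be told apart.

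Compared per kb of exon, the genes with the highest levels were not the same in full and deficient medium. In full medium the highest means were 149.8 for TIMP3, 99.5 for ITGB1, 90.6 for ITGA2, 88.6 for TIMP1 and 65.6 for FN1, in normalized counts per kb. In deficient medium MMP1 led with 357, followed by TIMP1 (123), THBS1 (77.9), ITGB1 (76.98) and ITGA2 (51.3). MMP1 stood at 18.5 in full medium and TIMP3 at 38.9 in deficient medium. The exonic lengths come from GENCODE release 29 and count every annotated exon, so these levels are approximate.

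**Figure D3:**
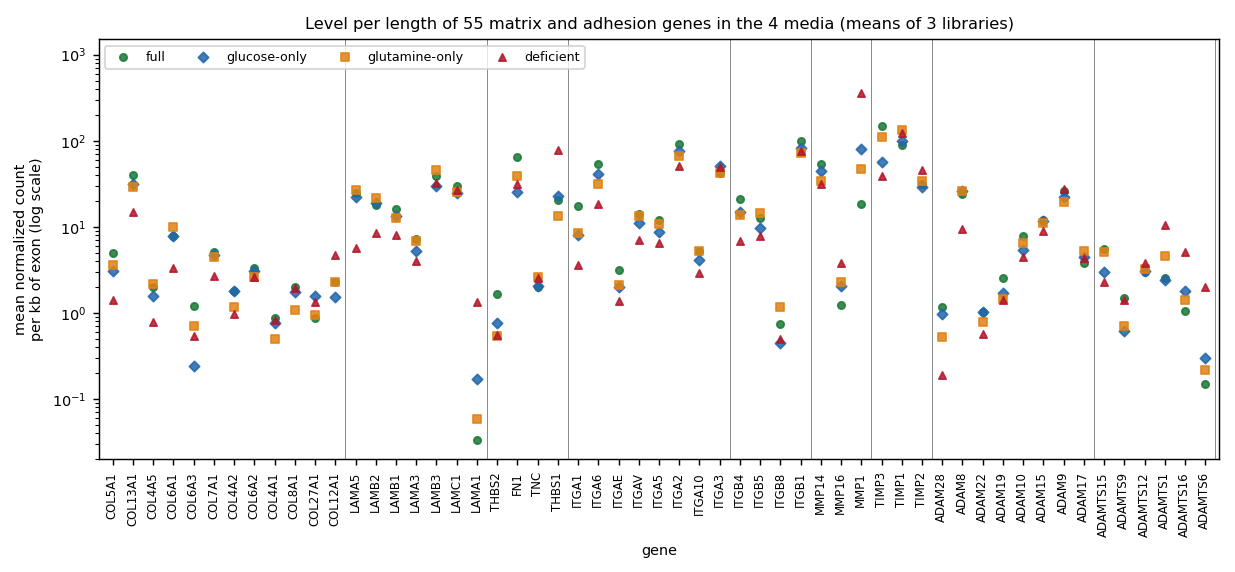
Mean normalized count per kb of exon (y axis, log scale) of 55 genes of the families (x axis, families separated by lines) in the 4 media, means of 3 libraries. MMP1 spans from 18.5 in full to 357 in deficient medium, and TIMP3 from 149.8 to 38.9 the other way.

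The single-nutrient media were also compared with each other, which contrasts missing glutamine with missing glucose. Of the 59 genes 16 passed (13.3% of all tested genes did), 11 lower in glucose-only medium (8.26% of all) and 5 higher (5.05%), with a median of -0.022 against -0.00071 for all. Of the 21 genes with a mean of at least 100, 8 passed, where 34.8% of all genes at that level did. TIMP3 was lower in glucose-only medium (-0.95 ± 0.093, adjusted p = 9.99e-09), as were FN1 (-0.60 ± 0.093, adjusted p = 3.10e-05), LAMB3 (-0.61 ± 0.10, adjusted p = 7.01e-05) and COL6A3 (-1.41 ± 0.32, adjusted p = 0.00311). MMP1 (0.76 ± 0.12, adjusted p = 3.15e-05) and THBS1 (0.74 ± 0.099, adjusted p = 3.03e-06) were higher, with no overlap between the media. ADAMTS1 was lower in glucose-only medium (-0.87 ± 0.21, adjusted p = 0.00596).

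Against deficient medium, 36 of the 59 genes differed in glucose-only medium (43.2% of all tested genes did), 22 higher (20.1%) and 14 lower (23.2%). In glutamine-only medium 40 differed (41.5% of all tested genes did), 27 higher (19.9%) and 13 lower (21.6%). LAMA1 and ADAMTS6 are among the lower genes of both comparisons, and had to differ from deficient medium by the way they were chosen. Leaving out these genes and THBS2, 34 of 56 differed in glucose-only medium, 22 higher and 12 lower. With glutamine alone 38 of 56 did, 27 higher and 11 lower. Among the 21 genes with a mean of at least 100, 17 passed with glucose alone and 17 with glutamine alone, where 62.8% and 62.5% of all genes at that level did. LAMA5 was higher with either nutrient, by 1.97 ± 0.11 (adjusted p = 2.61e-14) with glucose and 2.21 ± 0.11 (adjusted p = 2.07e-15) with glutamine. ADAM8 was higher by 1.46 ± 0.12 and 1.48 ± 0.12 (adjusted p = 1.67e-10 and 1.57e-10). MMP1 was lower with either, with changes of -2.17 ± 0.12 and -2.93 ± 0.12 (adjusted p = 1.17e-14 and 1.73e-17), and so was THBS1, with -1.79 ± 0.099 and -2.53 ± 0.099 (adjusted p = 1.30e-14 and 7.55e-18). FN1 was lower with glucose alone than with neither nutrient (-0.30 ± 0.093, adjusted p = 0.0102) and higher with glutamine alone (0.30 ± 0.093, adjusted p = 0.0117). The first of these FN1 values turned to 0.082 under quantile normalization. COL6A3 was lower with glucose alone (-1.07 ± 0.32, adjusted p = 0.0088), and its value with glutamine alone was 0.34 ± 0.32 (adjusted p = 0.418).

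Whether the effects of the nutrients added up was tested by the interaction, the change in deficient medium less the changes in both single-nutrient media, on the log2 scale. It passed for 21 of the 59 genes (26.5% of all tested genes passed), 12 above 0 (15.5% of all tested genes) and 9 below (11%), or 19 of 56, 10 above and 9 below, without the 3 genes that reached 10 in 1 medium only, with a median of -0.13 against 0.056 for all. Of the 21 genes with a mean of at least 100, 12 passed, where 47.5% of all genes at that level did. Below 0, where the loss of both nutrients went with a lower level than the single losses sum to, stood chains of laminins and collagens, the integrin subunits ITGAV (-0.58 ± 0.18, adjusted p = 0.0173) and ITGA6 (-0.41 ± 0.15, adjusted p = 0.0397), and ADAM8. The values were LAMA5 at -2.05 ± 0.16 (adjusted p = 9.88e-11), ADAM8 at -1.57 ± 0.18 (adjusted p = 9.02e-08), COL6A1 at -1.53 ± 0.26 (adjusted p = 6.66e-05) and LAMB2 at -1.42 ± 0.19 (adjusted p = 1.47e-06). Above 0 stood THBS1 at 2.41 ± 0.14 (adjusted p = 2.81e-13), ADAMTS9 at 2.17 ± 0.51 (adjusted p = 0.00217), COL6A3 at 1.77 ± 0.46 (adjusted p = 0.00468), COL12A1 at 1.57 ± 0.27 (adjusted p = 6.39e-05) and FN1 at 1.07 ± 0.13 (adjusted p = 4.31e-07). FN1 and ADAMTS9 were lower than in full medium in both single-nutrient media. ADAMTS9 reached 10 in 7 libraries, mostly of full and deficient medium, so its selection favoured a value above 0. COL6A3 reached 10 in 9 libraries, none of them of glucose-only medium. ITGA1 (-0.14 ± 0.15, adjusted p = 0.535) and TIMP3 (-0.065 ± 0.13, adjusted p = 0.757) did not pass, and their changes in the single-nutrient media summed to nearly that in deficient medium.

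**Figure D4:**
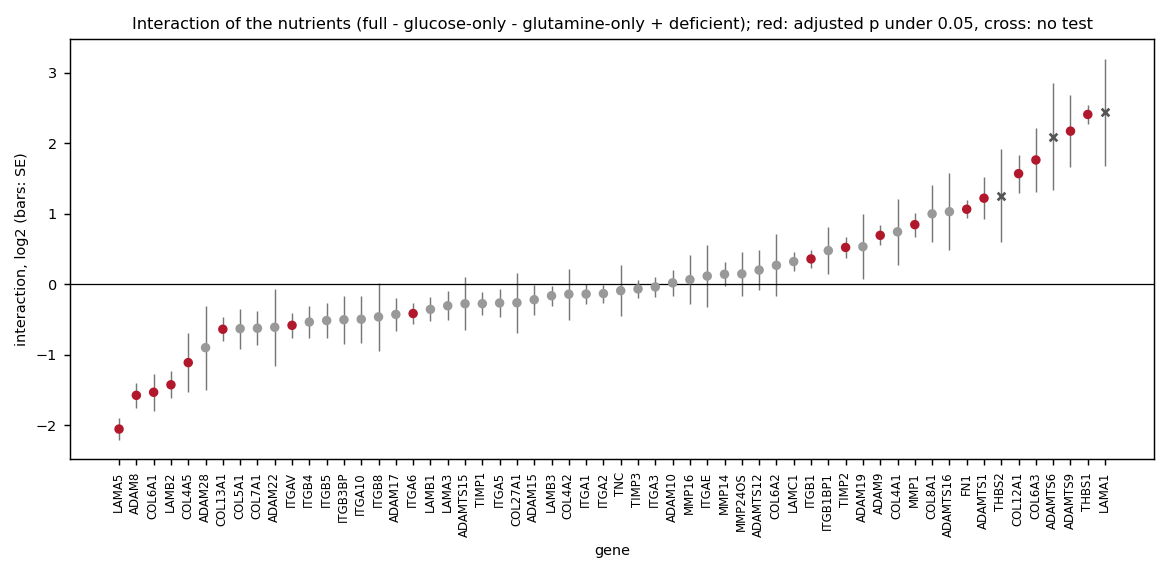
Interaction of the nutrients (y axis, log2, the change in deficient medium less both single-nutrient changes; bars are the SE) for 58 genes (x axis, ordered by value). Red points passed adjusted p under 0.05, from LAMA5 at -2.05 to THBS1 at 2.41, and crosses are the 3 genes that reached 10 in 1 medium only, for which no test is given.

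Of the 59 genes 44 had a promoter window in the RefSeq table. In its 250 bases before the start 6 short motifs were searched on both strands. GC boxes (GGGCGG) were found in 32 of the 44 windows (72.7%), against 56% of 15842 promoters of the same length. TEAD sites (GGAATG) were found in 10 (22.7% against 10.1%) and CRE cores (TGACGT) in 6 (13.6% against 8.67%). TATA boxes (TATAAA) were found in 5 (11.4% against 9.23%), CCAAT boxes (CCAAT) in 13 (29.5% against 34.5%) and AP-1 sites (TGANTCA) in 2 (4.55% against 5.04%). Windows of COL4A1 and COL4A2 overlap, and a match is a run of letters only.

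Genes that mature collagen were followed as a list, of which 20 of 31 were tested. In deficient medium 6 were higher and 8 lower, in glucose-only medium 2 and 8, and in glutamine-only medium 5 and 4, with medians of -0.14, -0.55 and 0.091 against 0.013, -0.027 and -0.0078 for all genes. Over all tested genes 26.3% were higher and 25.5% lower in deficient medium, 9.44% and 13.5% in glucose-only and 10.8% and 11.6% in glutamine-only medium, against which this list and those below are to be read. SERPINH1, the collagen chaperone, rose in deficient medium by 2.49 ± 0.11 (adjusted p = 2.73e-17), from 89.7 ± 7.85 to 508 ± 20.7. LOXL4, a collagen cross-linking oxidase, changed there by -2.34 ± 0.45 (adjusted p = 7.85e-05). In glucose-only medium the largest changes were those of P4HA1, a prolyl hydroxylase subunit (-1.93 ± 0.13, adjusted p = 4.57e-12), and PLOD2, a lysyl hydroxylase (-1.42 ± 0.13, adjusted p = 3.21e-09). In glutamine-only medium they were TGM2, a cross-linking transglutaminase (-1.56 ± 0.18, adjusted p = 1.98e-07), and PPIB, a prolyl isomerase (1.43 ± 0.23, adjusted p = 2.64e-05).

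Other matrix glycoproteins and proteoglycans were tested for 19 of 39 genes: 3 were higher and 11 lower in deficient, 1 and 5 in glucose-only and 3 and 5 in glutamine-only medium, with medians of -1.07, -0.38 and -0.33 against the same all-gene medians and shares. CCN2, a matricellular growth factor binder, rose in deficient medium by 2.46 ± 0.12 (adjusted p = 7.74e-16), and SDC3, a cell-surface proteoglycan, changed by -2.37 ± 0.28 (adjusted p = 5.66e-08). TGFBI, a secreted integrin ligand, was lower in glucose-only (-2.002 ± 0.30, adjusted p = 1.18e-05) and glutamine-only medium (-1.31 ± 0.30, adjusted p = 0.00173). SDC1, another syndecan, was lower in both as well (-1.60 ± 0.52, adjusted p = 0.0252, and -1.81 ± 0.52, adjusted p = 0.0115).

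Among other genes of matrix proteolysis 14 of 23 were tested, with 6 higher and 6 lower in deficient, 5 and 2 in glucose-only and 4 and 2 in glutamine-only medium. Their medians were 0.10, 0.24 and 0.31, where all genes had medians of 0.013, -0.027 and -0.0078. Over all tested genes 26.3% were higher and 25.5% lower in deficient medium, 9.44% and 13.5% in glucose-only and 10.8% and 11.6% in glutamine-only medium. SERPINB2, an inhibitor of plasminogen activators, went from 1.86 ± 1.88 in full to 38.4 ± 10.2 in deficient medium. PLAT, the tissue plasminogen activator, was lower in glucose-only medium (-1.36 ± 0.16, adjusted p = 1.23e-07), and SERPINE2, an inhibitor of serine proteases, was higher in glutamine-only medium (1.86 ± 0.15, adjusted p = 1.42e-10).

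How firmly the calls stand differed between comparisons. Of the 46 calls in deficient against full medium 35 passed in every alternative fit run at the same threshold (the exceptions were ADAM15, ADAM19, COL6A3, ITGA10, ITGA3, ITGB1BP1, LAMB3, MMP24OS, THBS2, TIMP1 and TIMP2). The 46 include the 3 genes that reached 10 in 1 medium only, and LAMA1 and ADAMTS6 are among the 35. Calls of these 3 genes follow from how they were chosen and tell nothing of firmness. In glucose-only against full medium 6 of 22 did (ADAM10, COL6A3, FN1, ITGA1, MMP1 and TIMP3), and leaving out 1 library gave 10 to 17 calls, with 10, 11, 14 and 11 without full B, full A, full C and glucose-only C. In glutamine-only against full medium 11 of 19 did (ADAM9, FN1, ITGA1, ITGA2, ITGA6, ITGB1, MMP1, MMP14, THBS1, TIMP1 and TIMP3). Between the single-nutrient media 5 of 16 did (FN1, LAMB3, MMP1, THBS1 and TIMP3), and 9 and 10 genes passed without glucose-only A and glutamine-only C. In the interaction 12 of 21 did. The others are not all named here. Among them, the call was lost in 15 of 22 alternative fits for ITGB1, 13 for COL4A5, 11 for ITGA6, 4 for ITGAV and 1 each for COL13A1 and MMP1.

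Some calls rested on 1 library. Against full medium, the deficient-medium value of COL6A3 was -0.85 without full C (adjusted p = 0.065) and that of ITGA10 -0.57 without full B (adjusted p = 0.0693). In glutamine-only medium ADAMTS1 stood at 0.60 without full C (adjusted p = 0.0536), and in glucose-only medium ITGA6 at -0.31 without glucose-only B (adjusted p = 0.0634). FN1 in glutamine-only against deficient medium was 0.25 without glutamine-only A (adjusted p = 0.0641), and ITGB8 between the single-nutrient media -1.01 without the same library (adjusted p = 0.0945). Against deficient medium ITGB8 in glutamine-only medium was 0.89 without that library (adjusted p = 0.0721) and 0.90 without deficient A (adjusted p = 0.0507). The interaction of ITGAV was -0.46 without deficient B (adjusted p = 0.0538). Several single libraries, each left out in turn, ended the deficient-medium calls of ADAM15, ADAM19, ITGA3, ITGB1BP1, LAMB3 and MMP24OS and the glutamine-only calls of ADAMTS9, COL8A1, LAMB1 and MMP16. In glucose-only medium they ended those of ADAMTS9, ADAMTS15, COL5A1, COL12A1, COL13A1, COL27A1, ITGA3, ITGA5, ITGB1, ITGB4, ITGB3BP, LAMA3, MMP16 and MMP24OS.

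The split into higher and lower genes moved with the scaling. Equal totals shifted the median change of all genes by -0.39 in deficient, -0.21 in glucose-only and -0.12 in glutamine-only against full medium, and by 0.18 and 0.27 in glucose-only and glutamine-only against deficient medium. The split in glucose-only against full medium was 1 higher and 27 lower with equal totals and 6 and 10 under quantile normalization, beside 5 and 17 as reported. In glutamine-only against full medium it was 7 and 15 under quantile normalization and 7 and 13 with size factors of protein-coding genes, beside 4 and 15. Between the single-nutrient media it was 2 and 11 with equal totals, beside 5 and 11, and in glutamine-only against deficient medium 31 and 7, beside 27 and 13. The interaction gave 11 above and 16 below 0 under quantile normalization, beside 12 and 9.

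At the edge of the level that chose the genes, the third-highest library of THBS2 read 10.1 and that of ADAM28 11.8, just inside, while THBS3 at 9.63 and LAMA2 at 8.38 fell just outside. Of the 101 genes with such names that were not tested, 99 stayed under 10 in every library and 28 had no read at all. The other 2, THBS3 and LAMA4, had highest values of 14.9 and 12.1. COL1A1, a chain of the main fibrillar collagen of connective tissue, had a highest value of 6.61.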

How the data were processed

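RNA-seq of 12 libraries, 3 in each of 4 media, was analysed at the level of genes. The deposited table holds signal, the reads of a gene scaled by the authors with a size factor for each library. The submitters' processing notes name FastQC, HISAT2, Subread, DESeq2 and GRCh38.p14; versions, the annotation release and the strand setting are not given in the sources used here. Divided by the step that stands for 1 read, 100% of the values came out whole (tolerance 0.01 reads), which recovered the reads. They totalled 875033 to 1473587 per library.

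A gene was tested where 3 or more libraries reached a normalized count of 10, which 9270 of 63187 genes did. Values were taken as log2(normalized count + 1) and tested with limma-trend (limma 3.58.1, R 4.3.3), fitting a mean per medium over all 12 libraries, moderated SE, two-sided, and Benjamini-Hochberg adjusted p under 0.05 over all 9270 genes. A fold change is on the log2(value + 1) scale, which understates changes of low genes. Alternatives were equal totals, quantile normalization, size factors of protein-coding genes, the recovered reads in DESeq2 1.42.0 or in edgeR 4.0.16 (TMM, quasi-likelihood test), no filter or a minimum mean of 100, pseudocounts of 0.5 and 8, a constant prior variance, the compared groups alone, a replicate block, adjusted p under 0.01, and each library left out. Deviations of same-lettered libraries correlated at 0.28, 0.15 and 0.54 between full and glutamine-only medium, and at 0.032, 0.44 and 0.63 between full and deficient medium. Full B with glutamine-only A reached 0.31, above the A and B pairs of these media. No pairing by letter is therefore read from these values, and the labels state none. The procedure was tested on simulated data.

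Any gene that met the naming rule could be named, with values per library for up to 6 called genes of a family by size of change and for fixed anchor genes. From each other list, genes with the 2 largest changes in each comparison with full medium were named. Values of some genes are not reported here, though the counts include them. The genes, lists and tests were chosen with earlier results of these data known. Positions and promoter bases are from RefSeq (GRCh38.p14) and exonic lengths and exon overlaps from GENCODE release 29.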

Additional observations from a re-analysis of the deposited data

Results flagged for a closer look

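Each gene here stands out because the effect of losing one nutrient differed with the presence of the other, by the test of that difference (the interaction, limma, adjusted p under 0.05). Values are log2, and none of their causes was tested.

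Below 0, with a lower level without both nutrients than the single losses sum to, were LAMA5 at -2.05, ADAM8 at -1.57, COL6A1 at -1.53, LAMB2 at -1.42, COL4A5 at -1.11, COL13A1 at -0.64, ITGAV at -0.58 and ITGA6 at -0.41. LAMA5, LAMB2, COL6A1 and ADAM8 passed in neither single-nutrient medium against full medium. The calls of COL4A5, COL13A1, ITGAV and ITGA6 were lost in 13, 1, 4 and 11 of 22 alternative fits.

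Above 0 were THBS1 at 2.41, ADAMTS9 at 2.17, COL6A3 at 1.77, COL12A1 at 1.57, ADAMTS1 at 1.22, FN1 at 1.07, MMP1 at 0.85, ADAM9 at 0.70, TIMP2 at 0.52 and ITGB1 at 0.36. Among these, the call of ITGB1 was lost in 15 of 22 alternative fits, with a lowest value of 0.031, and that of MMP1 in 1. Of all 21 interaction calls 12 passed in every alternative fit, and the calls that were lost are not all named here. The selection of ADAMTS9, which reached 10 in 7 libraries, favoured a value above 0.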

How the results depend on the processing

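Of 200 called results over the 7 comparisons, 126 passed in every alternative run at the same threshold. Both counts include results of LAMA1 and ADAMTS6, which had to differ between media by the way they were chosen. Over all media the replicate letters gave no clear pairing: of 18 same-letter pairs 7 deviated together with a correlation over 0.1 (range -0.36 to 0.63). Full C correlated with deficient C at 0.63 and with glutamine-only C at 0.54, and the latter with deficient C at 0.54. Glucose-only C ran opposite to full C (-0.36), glutamine-only C (-0.32) and deficient C (-0.34). With a replicate block 197 of 200 calls passed, and 3 were lost, COL12A1 (-0.56) and MMP24OS (-0.66) between the single-nutrient media and MMP24OS (0.54) in glutamine-only against deficient medium. In glutamine-only against full medium the block gave 20 calls beside 19 and lost none.

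Values that reversed were, with equal totals, ADAM9 at -0.32 and ITGA3 at -0.13 in deficient against full medium and ITGA3 at 0.024 in glutamine-only against deficient medium. Under quantile normalization they were ITGA3 at -0.064 and 0.053 in these comparisons and FN1 at 0.082 in glucose-only against deficient medium. The cause was not tested.

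Counts of the called matrix genes that moved by over 1.5 times were as follows. With only genes of a mean of at least 100 tested, which leaves 21 of the genes, 19 passed in deficient against full, 14 in glucose-only against full, 10 in glucose-only against glutamine-only, 17 in glucose-only and 17 in glutamine-only against deficient medium, and 13 in the interaction. In glucose-only against full medium 6 passed with DESeq2, 10 without a filter, 12 with a constant prior variance and 7 at adjusted p under 0.01. In glucose-only against glutamine-only medium 5 passed with DESeq2 and 8 at adjusted p under 0.01.

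Leaving out 1 library gave 41 to 45 calls in deficient, 10 to 17 in glucose-only and 15 to 18 in glutamine-only against full medium. It gave 9 to 14 between the single-nutrient media, 32 to 35 and 32 to 39 in glucose-only and glutamine-only against deficient medium, and 17 to 20 in the interaction.

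Over all genes, a mean of at least 100 gave 904, 618, 625, 486, 777, 777 and 633 calls, in the order deficient, glucose-only and glutamine-only against full medium, glucose-only against glutamine-only medium, then both of these against deficient medium, then the interaction. DESeq2 gave 1255 in glucose-only against full, 604 in glucose-only against glutamine-only medium and 1495 in the interaction. Adjusted p under 0.01 gave 1245, 1276, 656 and 1496 in glucose-only and glutamine-only against full, glucose-only against glutamine-only and the interaction, and a constant prior variance 817 in glucose-only against glutamine-only medium. Genes of a few reads, such as LAMA1, ADAMTS6 and ADAM28, are limited by depth.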

Other observations

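Genes of focal adhesions and integrin signalling, which join integrins to actin, were tested for 22 of 30. In deficient against full medium 3 were higher and 10 lower, in glucose-only 2 and 4, and in glutamine-only 2 and 6, with medians of -0.19, -0.09 and -0.22 against 0.013, -0.027 and -0.0078 for all genes. Over all tested genes 26.3% were higher and 25.5% lower in the first comparison, 9.44% and 13.5% in the second and 10.8% and 11.6% in the third. FERMT2, a kindlin that activates integrins, rose in deficient medium by 1.89 ± 0.13 (adjusted p = 5.06e-13). FERMT3, the kindlin of blood cells, went from 0.932 ± 0.94 in full to 47.5 ± 14.4 in deficient medium. PLEC, plectin, which links hemidesmosomes to intermediate filaments, was higher in glucose-only medium (0.91 ± 0.10, adjusted p = 1.19e-07), and CAV1, the coat protein of caveolae, was lower in glutamine-only medium (-0.87 ± 0.11, adjusted p = 4.86e-07).

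Genes of the TGF-beta pathway were tested for 18 of 22. In the same order 5 were higher and 7 lower, 2 and 4, and 3 and 3. Over all tested genes 26.3% and 25.5%, 9.44% and 13.5%, and 10.8% and 11.6% were. The medians of the list were -0.21, 0.07 and -0.04 against 0.013, -0.027 and -0.0078 for all genes. ID1, an inhibitor of basic helix-loop-helix factors, went from 126 ± 12.4 in full to 44.7 ± 7.25 in glucose-only, 12.7 ± 1.89 in glutamine-only and 29.4 ± 8.69 in deficient medium. Its log2 change was -3.22 ± 0.20 in glutamine-only medium (adjusted p = 4.81e-13) and -2.11 ± 0.20 in deficient medium (adjusted p = 8.30e-10). ID2, its relative, went the other way, from 1.82 ± 1.58 in full to 12.7 ± 1.84 in glutamine-only and 27.2 ± 8.18 in deficient medium. TGFBR3, a co-receptor of TGF-beta, was lower in glucose-only medium (-1.04 ± 0.30, adjusted p = 0.0117).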
